A study of Mus musculus with 12 samples.

Results

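The genes described here are 9 genes of bone morphogenetic protein (BMP) signalling, followed in whole kidneys of mice that lost Cep120 or Pkd1. They were chosen by name, with earlier results of these data known. They are the ligands Bmp2, Bmp4, Bmp6 and Bmp7, the receptor Bmpr1a, the antagonist Grem1 and the target genes Id1, Id2 and Id3. All 9 were found among the 55487 genes of the deposited table, and all 9 had enough reads to be tested. In the Pkd1 knockouts Bmp2 and Bmp4 RNA were higher, and Bmp7 and Id2 RNA lower, than in their controls. In the Cep120 knockouts none of the 9 passed the test, and neither did any other of the 19890 genes tested. In the Pkd1 knockouts 44.4% of the 9 passed, as did 44.4% of all genes tested. The call of Bmp7 was lost in 13 of 25 alternative fits, that of Bmp4 in 8 of 25, Bmp2 in 4 of 24 and Id2 in 1 of 25.

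BMP ligands are secreted and bind paired type I and type II receptors, and the receptors phosphorylate Smad1, Smad5 and Smad9. These enter the nucleus with Smad4 and switch on the Id genes, whose products bind other helix-loop-helix proteins and keep them off DNA. Secreted antagonists such as gremlin hold the ligands away from the receptors, and in the developing kidney this balance sets where the ureteric bud branches and how long nephron progenitors persist.

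The study sequenced whole-kidney RNA at postnatal day 15 (P15), with 12 libraries in 4 groups of 3. Cep120 is a protein of the centriole, whereas polycystin-1, the product of Pkd1, is a membrane protein of the primary cilium. The design sets Cep120 loss beside the loss of a ciliary protein in cystic kidneys. The groups are Cep120 KO (Hoxb7-Cep120, titled homo), Cep120 controls (titled het), Pkd1 KO (Hoxb7-Pkd1, titled homo) and Pkd1 controls (titled het). The genotype label of both control groups says WT while their titles say het, so whether the controls carried 1 deleted allele cannot be told from the labels. Hoxb7 drives expression in the ureteric bud and its descendants in the collecting ducts, whereas the RNA came from the whole organ. Sex, strain and background are not given in the labels. Nothing in the labels ties each library to its own mouse, and p-values here rest on the spread between libraries, which may be technical.

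Total counts per library were 23070688 to 31837958. Kidney markers of proximal tubule, loop of Henle, principal cell and podocyte were present in every library. The libraries did not all resemble each other within their groups. Genes with at least 1 read numbered 30289 to 32705 in all Cep120 KO libraries, Cep120 controls 1 and 2 and Pkd1 control 3, and 23532 to 25652 in the other 6 libraries. Xist RNA was under 1 CPM (counts scaled to library size) in all Pkd1 KO libraries and in Cep120 KO 1 and 2, and was 53.6 to 193 CPM in the other 7 libraries, so in the Pkd1 line its absence and the genotype cannot be told apart. Y-linked RNA (Ddx3y, Eif2s3y, Kdm5d and Uty summed) was 135 to 153 CPM in Pkd1 KO libraries, against 0.0628, 0.0433 and 104 CPM in Pkd1 controls 1 to 3. Pkd1 control 3 thus held Xist and Y-linked RNA together, as did Cep120 KO 3 and Cep120 controls 1 and 2. Adrenal markers summed to 1785 CPM in Pkd1 KO 3 and to 2.31 to 4.36 CPM elsewhere. Urothelium markers summed to 243 CPM in Pkd1 KO 1 and to 31.0 to 142 CPM elsewhere, and adipose markers to 50.4 to 829 CPM over all libraries. Cep120 controls 1 and 2 differed from each other far less than any other pair in a group, with a chi-squared per gene of 3.82 against 19.2 to 42.7, but by more than sampling noise, and they were kept as separate libraries. The RNA of the targeted genes does not check the labels. Cep120 had 16.9 to 22.3 CPM in Cep120 KO libraries and 12.6 to 18.3 CPM in their controls, and Pkd1 had 24.8 to 38.0 CPM in Pkd1 KO libraries and 12 to 23.2 CPM in theirs.

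The start regions of Id2 and Id3 are shown because these close relatives had different values in the Pkd1 line, where Id2 was lower in KO and Id3 did not pass the test. Each runs from 250 bases before the start of the gene to 50 after it, as listed by RefSeq on GRCm38.p6. Capitals mark GGCGCC, the core of a BMP response element described for Id1, and the Smad-binding letters CAGAC on either strand (GTCTG on the strand shown). Id2 lies on the minus strand at chr12:25096043-25096342, and Id3 on the plus strand at chr4:136143572-136143871.
Id2: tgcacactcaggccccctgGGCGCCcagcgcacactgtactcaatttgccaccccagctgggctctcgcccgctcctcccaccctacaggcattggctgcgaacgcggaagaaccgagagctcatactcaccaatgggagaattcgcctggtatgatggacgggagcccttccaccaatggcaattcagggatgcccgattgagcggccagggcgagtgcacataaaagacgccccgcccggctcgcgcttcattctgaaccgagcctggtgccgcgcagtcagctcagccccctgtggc
Id3: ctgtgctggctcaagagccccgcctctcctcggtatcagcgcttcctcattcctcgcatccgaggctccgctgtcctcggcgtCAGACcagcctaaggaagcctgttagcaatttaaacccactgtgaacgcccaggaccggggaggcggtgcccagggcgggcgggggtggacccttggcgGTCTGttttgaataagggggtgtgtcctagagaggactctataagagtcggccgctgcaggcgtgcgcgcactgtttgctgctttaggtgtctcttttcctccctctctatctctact
The Id2 window held 1 GGCGCC, which begins 231 bases before the start, and no CAGAC. The Id3 window held no GGCGCC and 2 CAGAC. Of 32851 RefSeq windows of the same length, 11.9% held GGCGCC and 49.6% held CAGAC. Start regions were found for 6 of the 9 genes, and 3 of the 6 held each motif. A match describes the letters and is not evidence of binding. The windows reach only 250 bases before the start, so a motif missing from them may lie further away. Whether these motifs bear on the values of Id2 and Id3 was not tested.

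The 9 genes covered a wide range of abundance. On the deposited scale of length-scaled transcript abundance (TPM), which allows comparison between genes, Id3 averaged 492 and Id2 442 over all libraries, and their ranges of 408 to 618 TPM and 253 to 622 TPM overlapped. Id1 followed at 110 TPM and Bmp4, the most abundant of the ligands here, at 31.2 TPM. Bmp7 averaged 9.46 TPM and Bmpr1a 7.95 TPM, with overlapping ranges of 7.62 to 11.4 TPM and 5.30 to 11.4 TPM. Bmp6 averaged 3.52 TPM. Bmp2 averaged 0.705 TPM and Grem1 0.253 TPM, so both were rare in whole kidney. A single coding transcript held, per the deposited transcript table, 95.5% of Id2 TPM, 95.3% of Id1 TPM, 98.1% of Id3 TPM and 96.0% of Bmp7 TPM, and a retained-intron transcript held 16.0% of Bmp4 TPM.

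**Figure D1:**
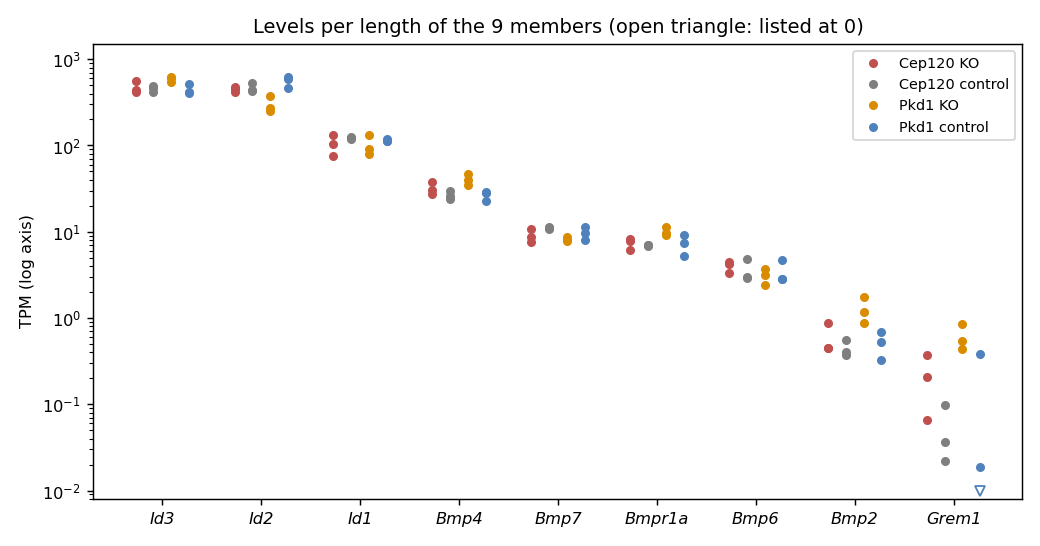
Level of each gene in every library, in TPM on a log axis, with genes in order of their mean from left to right. Each point is 1 library, grouped from left to right as Cep120 KO, Cep120 control, Pkd1 KO and Pkd1 control, and the open triangle is the Pkd1 control in which Grem1 was listed at 0. Id3 and Id2 lie near the top at means of 492 and 442 TPM, and Bmp2 and Grem1 at the bottom at 0.705 and 0.253 TPM.

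Of the 9 genes, 4 passed the test in the Pkd1 line, at an adjusted p under 0.05 in edgeR's quasi-likelihood fit. Bmp2 and Bmp4 were higher and Bmp7 and Id2 lower in Pkd1 KO. Of all 19890 genes tested, 44.4% passed in this comparison (22.1% higher and 22.4% lower), so the share of the 9 genes, also 44.4%, was no larger than the background. In CPM, KO and control libraries did not overlap for 5 of the 9, the 4 above and Grem1, where 52.9% of all genes did not overlap. The median log2 fold change was 0.17 for the 9 genes and -0.04 for all genes. With Xist absent or present as a term 0 of the 9 passed and 2002 of all genes, where 8839 passed with no such term. With Y-linked RNA as a term 2 of the 9 passed, beside 7248 of all genes. The Xist term varies within a group only among the Cep120 KO libraries, so it is no adjustment within the Pkd1 line. Without Pkd1 KO 1, Pkd1 KO 2 or Pkd1 control 2 the count was 2 of the 9, beside 7344, 7277 and 7706 of all genes. Without both replicate 3 controls it was 4, beside 9138 of all genes, and there Bmp4 lost its call and Grem1 gained one. None of the 9 passed in the Cep120 line, and none of all genes did (0%), although 1201 had an unadjusted p under 0.05 where 994.5 would by chance. Voom also called 0 genes there and DESeq2 called 21, none of them among the 9. In CPM, KO and control libraries of that line did not overlap for 1 of the 9, Bmp7, where 16.5% of all genes did not. A test of whether the Pkd1 and Cep120 effects differ called 1 of the 9, Id2, which was more negative in the Pkd1 line, and 28.1% of all genes (13.9% more positive and 14.2% more negative in the Pkd1 line).

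**Figure D2:**
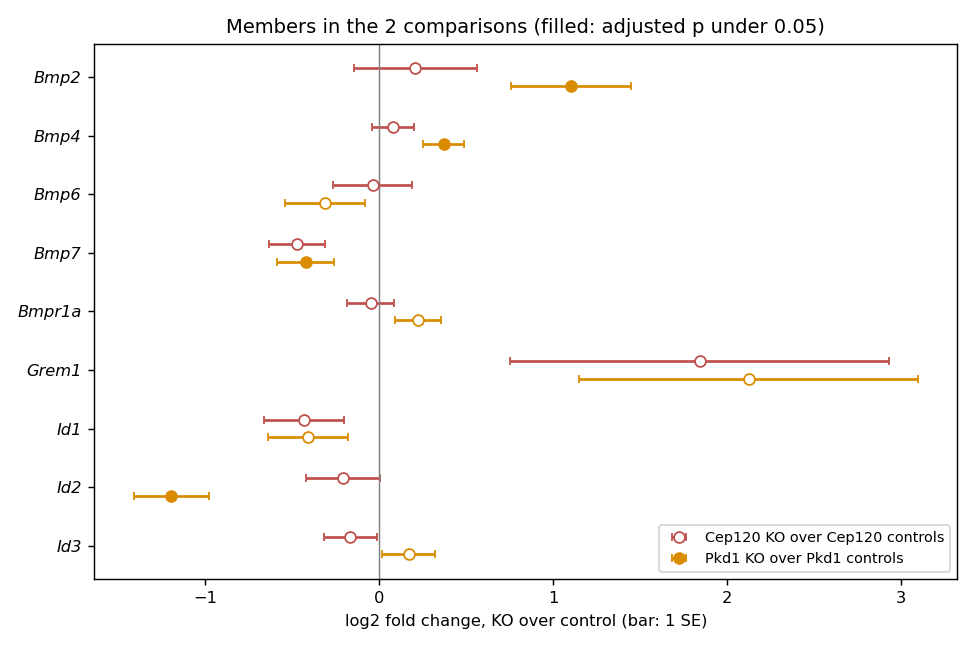
Log2 fold change of each gene, KO over control, for the Cep120 line (upper point of each pair) and the Pkd1 line (lower point), with bars of 1 standard error. Filled points passed an adjusted p of 0.05, and these are Bmp2, Bmp4, Bmp7 and Id2 in the Pkd1 line, while no point of the Cep120 line is filled.

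Bmp4, which in the embryo is made by the mesenchyme around the ureteric bud and limits where buds form, was modestly higher in Pkd1 KO. Its libraries had 41.8, 47.7 and 45.6 CPM in Pkd1 KO 1 to 3, against 35.8, 37.8 and 31.1 CPM in Pkd1 controls 1 to 3. Every Pkd1 KO library lay above every Pkd1 control. The means were 45.1 ± 3.0 CPM in Pkd1 KO and 34.9 ± 3.45 CPM in Pkd1 controls (SD, n = 3 each), a 1.29-fold difference with a log2 fold change of 0.37 (edgeR adjusted p = 0.0238, SE 0.12). In the Cep120 line the 3 KO libraries had 42.5, 32.0 and 35.3 CPM, against 34.1, 34.8 and 35.1 CPM in the controls. These overlapped, with a log2 fold change of 0.08 (edgeR adjusted p = 0.882, SE 0.12). The Pkd1 result for Bmp4 lost its call without Pkd1 KO 2 (adjusted p = 0.104), without Pkd1 KO 3 (adjusted p = 0.0708) and without Pkd1 control 3 (adjusted p = 0.108), and under upper quartile scaling its log2 fold change was 0.28 (adjusted p = 0.0635).

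Bmp2, a close relative of Bmp4 in sequence, was rare in controls and higher in Pkd1 KO. It had 3.92, 2.87 and 2.01 CPM in Pkd1 KO 1 to 3, against 1.4, 1.05 and 1.62 CPM in Pkd1 controls 1 to 3. All KO libraries exceeded all controls, by the least margin in Pkd1 KO 3. The means were 2.93 ± 0.961 CPM in Pkd1 KO and 1.36 ± 0.287 CPM in Pkd1 controls (SD, n = 3 each), and the log2 fold change was 1.10 (edgeR adjusted p = 0.0208, SE 0.35). Cep120 KO libraries had 1.08, 1.92 and 1.06 CPM, against 0.964, 1.42 and 1.14 CPM in Cep120 controls, and overlapped them. Without Pkd1 KO 1, the library with the highest urothelium markers, the Pkd1 value was 0.82 (adjusted p = 0.106). Without Pkd1 control 2 it was 0.96 (adjusted p = 0.0732).

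Bmp7, which keeps nephron progenitors alive in the embryo and is later expressed along the distal tubule and collecting duct, stood lower in KO libraries of both lines. It had 21.5, 24.0 and 24.5 CPM in Pkd1 KO 1 to 3, against 35.9, 30.6 and 27.3 CPM in Pkd1 controls 1 to 3. Cep120 libraries had 30.9, 19.1 and 24.7 CPM in KO 1 to 3, against 32.3, 33.7 and 37.9 CPM in controls 1 to 3. In CPM no KO library reached the lowest control of its own line, but in the deposited TPM both lines overlapped. There Cep120 KO 1 (10.706) lay above Cep120 control 1 (10.621), and Pkd1 KO 2 and 3 (8.03 and 8.68) above Pkd1 control 2 (7.96). The log2 fold change was -0.42 in the Pkd1 line (edgeR adjusted p = 0.0493, SE 0.16) and -0.47 in the Cep120 line (SE 0.16, unadjusted p = 0.0120, edgeR adjusted p = 0.757). The Pkd1 value passed by a narrow margin in a comparison where many genes pass. The test of the difference between the lines gave 0.05 (adjusted p = 0.885), which does not show that the effects were equal. The Pkd1 call was lost in 13 of 25 alternatives, among them 9 of the 12 fits that left out a library, with log2 fold changes from -0.54 to -0.31 over those 12. The smallest was -0.22 (adjusted p = 0.405), with Y-linked RNA as a term.

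Bmp6, known from mouse liver as the ligand that sets hepcidin, did not pass in either line. It had 7.58, 9.53 and 5.95 CPM in Pkd1 KO 1 to 3, against 7.81, 9.64 and 11.2 CPM in Pkd1 controls. Its libraries overlapped, with a log2 fold change of -0.31 (edgeR adjusted p = 0.282, SE 0.23). Cep120 KO libraries had 11.7, 9.78 and 8.43 CPM and their controls 13.2, 8.37 and 9.16 CPM, and the log2 fold change was -0.04 (edgeR adjusted p = 0.974, SE 0.23).

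Bmpr1a encodes the type I receptor ALK3, which binds BMP2 and BMP4. It had 46.6, 40.9 and 37.3 CPM in Pkd1 KO 1 to 3, against 35.5, 31.3 and 40.0 CPM in Pkd1 controls, and Pkd1 control 3 lay above Pkd1 KO 3. In the deposited TPM Pkd1 KO 3 (9.235) lay just above Pkd1 control 3 (9.223). The log2 fold change was 0.22 (edgeR adjusted p = 0.191, SE 0.13). In Cep120 KO it had 26.6, 32.4 and 35.3 CPM, against 31.9, 30.8 and 35.0 CPM in Cep120 controls (log2 fold change -0.05, SE 0.13, edgeR adjusted p = 0.937).

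Grem1 encodes gremlin, which binds BMP2, BMP4 and BMP7 and in the mouse embryo is needed for the ureteric bud to grow out. It was rare everywhere and most abundant in Pkd1 KO. The counts were 49, 84 and 37 reads in Pkd1 KO 1 to 3, against 2, 0 and 32 reads in Pkd1 controls 1 to 3. In CPM these are 1.66, 2.70 and 1.33 in Pkd1 KO, against 0.0651, 0 and 1.21 in Pkd1 controls, where 0 reads allow up to 0.151 CPM (3 counts, counting error only). Pkd1 control 3 thus stood near the KO libraries, and the other controls near 0. The log2 fold change was 2.12 (edgeR adjusted p = 0.0934, SE 0.98) and did not pass. Without Pkd1 control 3 it was 5.44 (adjusted p = 0.000988). With all 12 libraries kept, Grem1 also passed with no filter (2.14, adjusted p = 0.00193), with voom (3.65, adjusted p = 0.0135) and with the deposited log2 CPM (3.90, adjusted p = 0.0190), so the call turned on that library and on the filter and tool. Pkd1 control 3 is also the library of its group with the larger number of detected genes, and a fit with a term for the 2 classes of detected genes gave 4.60 (adjusted p = 0.00101). With the Xist term the value was 0.12 (adjusted p = 0.979), and with Y-linked RNA as a term 0.54 (adjusted p = 0.585). In the Cep120 line Grem1 had 17, 33 and 6 reads in KO 1 to 3, against 3, 8 and 2 reads in controls 1 to 3. Cep120 KO 3 lay among the controls, and the log2 fold change of 1.84 (edgeR adjusted p = 0.757, SE 1.09) did not pass.

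**Figure D3:**
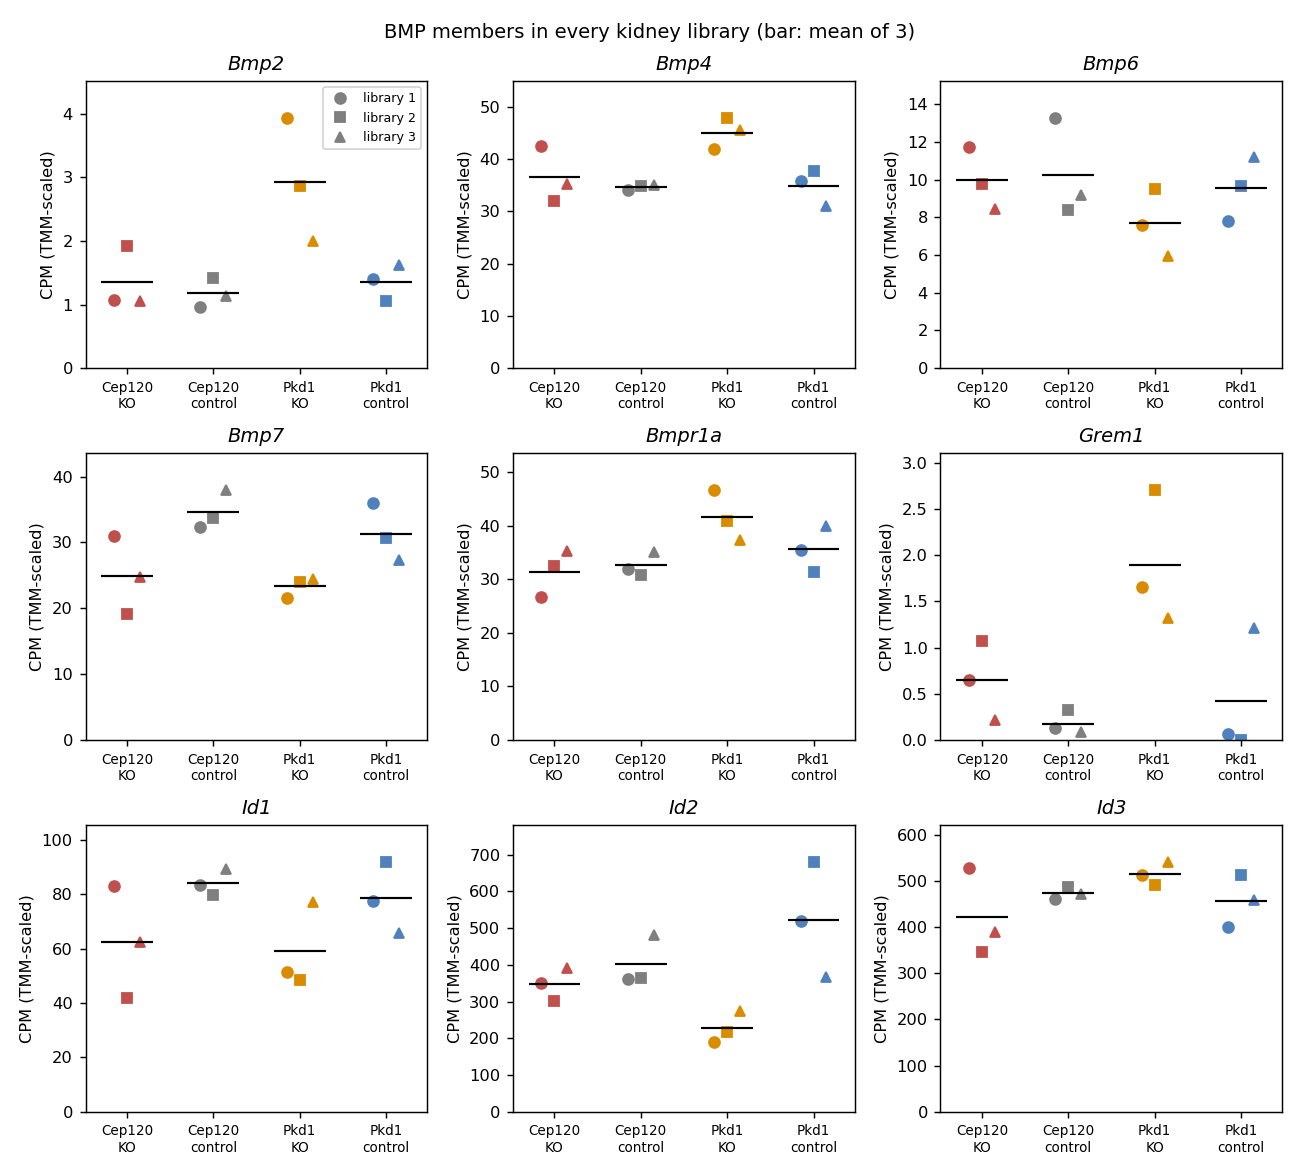
TMM-scaled CPM of each gene in every library, with the 3 libraries of a group as circle, square and triangle and a bar at their mean. Panels have their own axes from 0. In Id2 the Pkd1 KO libraries reach at most 275 CPM and the Pkd1 controls start at 368 CPM, while in Grem1 the triangle of the Pkd1 controls lies at 1.21 CPM beside KO values of 1.33 to 2.70 CPM.

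Id2 had the largest fold change of the 3 Id genes in the Pkd1 line. It is one of the Id genes that BMP Smads switch on, and it is also driven by other signals. Its RNA was at 191, 218 and 275 CPM in Pkd1 KO 1 to 3, against 518, 680 and 368 CPM in Pkd1 controls 1 to 3. The groups did not overlap, with Pkd1 control 3 the lowest control and Pkd1 KO 3 the highest KO. The means were 228 ± 42.8 CPM in Pkd1 KO and 522 ± 156 CPM in Pkd1 controls (SD, n = 3 each), a 2.29-fold lower level in KO with a log2 fold change of -1.20 (edgeR adjusted p = 0.000737, SE 0.22). Leaving out each library in turn moved it between -1.42 and -0.96, and the call held each time. In the Cep120 line Id2 had 352, 302 and 391 CPM in KO 1 to 3, against 362, 365 and 481 CPM in controls 1 to 3. These overlapped, with a log2 fold change of -0.21 (edgeR adjusted p = 0.821, SE 0.21). The difference, Pkd1 effect minus Cep120 effect, was -0.99 (edgeR adjusted p = 0.0289, SE 0.30). That difference lost its call in 8 of 24 alternatives, 7 of them fits that left out 1 library, with adjusted p up to 0.0713.

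Id1 stood lower on average in the KO libraries of both lines without passing. It had 51.6, 48.6 and 77.0 CPM in Pkd1 KO 1 to 3, against 77.6, 91.9 and 65.9 CPM in Pkd1 controls. Pkd1 KO 3, the library with high adrenal markers, lay among the controls. The log2 fold change was -0.41 (edgeR adjusted p = 0.164, SE 0.23), and without Pkd1 KO 3 it was -0.66 (adjusted p = 0.0420). Cep120 KO 1 to 3 had 83.1, 41.8 and 62.5 CPM, against 83.6, 79.8 and 89.4 CPM in their controls, and the log2 fold change was -0.43 (edgeR adjusted p = 0.757, SE 0.23).

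Id3, with the highest mean TPM of the 9 genes, did not pass in either line. It had 512, 491 and 540.3 CPM in Pkd1 KO 1 to 3, against 400.5, 513 and 458 CPM in Pkd1 controls. The groups overlapped in CPM, with a log2 fold change of 0.17 (edgeR adjusted p = 0.380, SE 0.15). In the deposited TPM they did not overlap, at 541 to 618 TPM in Pkd1 KO and 408 to 522 TPM in Pkd1 controls. In Cep120 KO 1 to 3 it had 526, 346 and 389 CPM, against 459.9, 487 and 470.2 CPM in controls, with a log2 fold change of -0.17 (edgeR adjusted p = 0.805, SE 0.15). Cep120 KO 2 was the lowest Cep120 KO library for all 3 Id genes and for Bmp7.

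**Figure D4:**
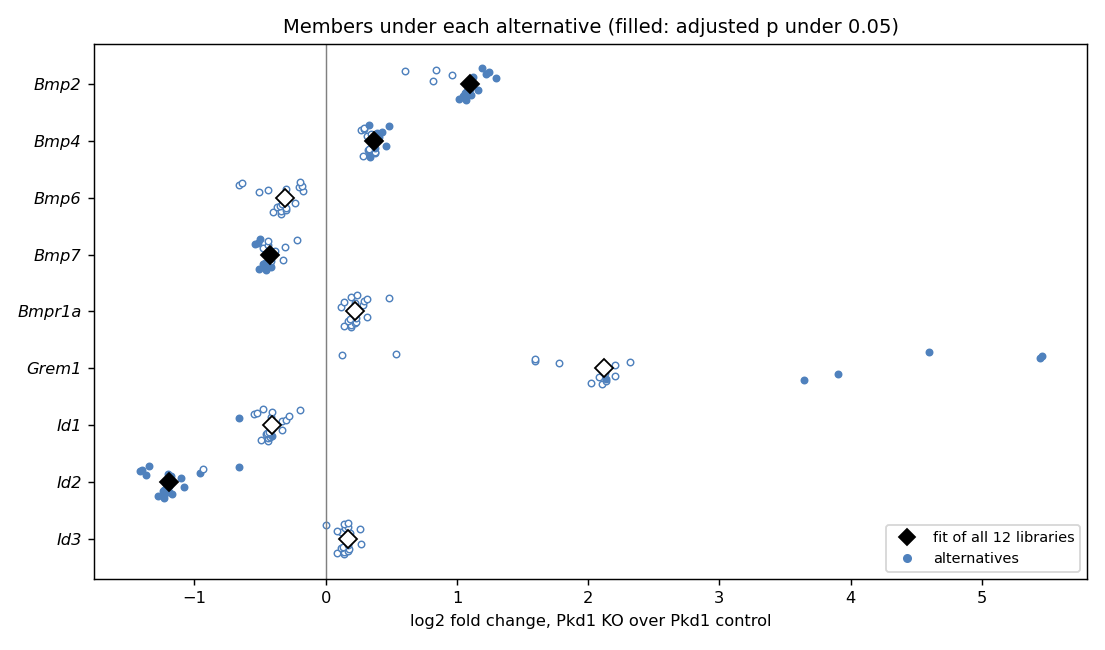
Log2 fold change of each gene in Pkd1 KO over Pkd1 controls, in the fit of all 12 libraries (diamonds) and under each alternative setting or left-out library (circles), filled where the adjusted p was under 0.05. Id2 stays below 0 throughout and is open under 1 alternative, Bmp7 is open under 13, and Grem1 spreads to 5.46 when replicate 3 controls are left out.

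The whole-organ RNA of the Pkd1 line differed in its mix of cell-type markers. Proximal tubule markers summed to 731 to 1116 CPM in Pkd1 KO and 4018 to 6247 CPM in Pkd1 controls, and all 8 were lower. Loop of Henle markers summed to 834 to 1338 CPM in KO and 2344 to 3420 CPM in controls, with 4 of 5 lower. Distal convoluted tubule markers summed to 203 to 336 CPM in KO and 778 to 928 CPM in controls, with 3 of 4 lower. Principal cell markers, of the collecting duct, summed to 2098 to 3814 CPM in KO and 603 to 845 CPM in controls, with 7 of 7 higher. Intercalated cell markers summed to 176 to 205 CPM in KO and 187 to 384 CPM in controls, with 4 of 6 lower and 1 higher. Stromal markers summed to 4274 to 6688 CPM in KO and 999 to 1672 CPM in controls, with 6 of 7 higher, and macrophage markers to 567 to 823 CPM in KO and 87.0 to 220.1 CPM in controls. Endothelial markers summed to 232 to 298 CPM in KO and 453 to 495 CPM in controls, with 6 of 7 lower. Bmp4 and Bmp2 were higher in the same libraries as the stromal and principal cell markers. In those libraries Id2 and Bmp7 were lower, as were the proximal tubule, loop of Henle and endothelial markers, so both went the other way from the principal cell markers. The part of these lists in the BMP values was not tested, and in bulk RNA fewer cells of a type and less RNA per cell cannot be told apart. No marker of these lists passed in the Cep120 line.

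The rest of the pathway was described by 5 further lists with 51 genes in all, of which 44 were tested. In the Pkd1 line 24 of the 44 passed, 18 higher and 6 lower, or 54.5% beside 44.4% of all genes. In the Cep120 line none passed. The difference between the lines passed for 15 of the 44, 12 higher and 3 lower in the Pkd1 line, or 34.1% beside 28.1% of all genes. Antagonists and modulators, with 15 of the 44 tested genes, held 12 of the 24 that passed in the Pkd1 line, counting Bambi, which is on 2 lists. With the Xist term 5 antagonists and modulators, 1 ligand and 0 receptors, Smads or targets passed, beside 2002 of all 19890 genes.

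Among other ligands, 6 of 9 were tested and 5 passed in the Pkd1 line, 3 higher and 2 lower, or 83.3% beside 44.4% of all genes. The count was 3 without Pkd1 KO 1, without Pkd1 control 1 and with Y-linked RNA as a term, beside 7344, 7979 and 7248 of all genes. Bmp3, which binds BMP receptors without activating Smads, had 82.1, 73.7 and 90.0 CPM in Pkd1 KO 1 to 3, against 9.60, 5.12 and 12.9 CPM in Pkd1 controls. The groups were far apart, and the log2 fold change was 3.15 (edgeR adjusted p = 5.75e-06, SE 0.29). Bmp3 did not pass in the Cep120 line, at 8.79, 13.4 and 10.1 CPM in KO against 11.2, 9.35 and 6.45 CPM in controls, and the difference between the lines was 2.88 (adjusted p = 0.000321). Bmp8b, a ligand known from mouse brown fat and germ cells, averaged 1.30 ± 0.0881 CPM in Pkd1 KO and 0.190 ± 0.125 CPM in Pkd1 controls (SD, n = 3 each), with a log2 fold change of 2.69 (edgeR adjusted p = 0.00632, SE 0.68). Gdf6 was also higher, at 0.939 ± 0.567 CPM in Pkd1 KO and 0.105 ± 0.130 CPM in controls. Bmp5 and Gdf5 were lower, with log2 fold changes of -2.42 and -1.47, and all of Bmp5, Gdf5 and Gdf6 are rare here and were named after their values were seen. Gdf5 passed narrowly (edgeR adjusted p = 0.0446), at 0.372, 0.708 and 0.322 CPM in Pkd1 KO 1 to 3, against 1.82, 1.51 and 0.604 CPM in Pkd1 controls, and Pkd1 KO 2 lay above Pkd1 control 3. It lost its call in 13 of 24 alternatives, and with Y-linked RNA as a term its log2 fold change was -0.29 (adjusted p = 0.731).

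Of 9 other receptors and co-receptors, all tested, 3 were higher in Pkd1 KO and none lower. This is 33.3% called, below the 44.4% of all genes. The median log2 fold change of the list was 0.35, beside -0.04 for all genes. Bmpr1b, which encodes another type I receptor, ALK6, had 18.3, 16.6 and 20.5 CPM in Pkd1 KO 1 to 3, against 9.18, 6.02 and 10.5 CPM in Pkd1 controls. Its log2 fold change was 1.10 (edgeR adjusted p = 0.000846, SE 0.20), against 0.03 in the Cep120 line, and the lines differed by 1.07 (adjusted p = 0.0155). Rgma, a membrane-anchored co-receptor of BMP2 and BMP4, averaged 8.63 ± 0.712 CPM in Pkd1 KO and 3.49 ± 0.545 CPM in Pkd1 controls (SD, n = 3 each), with a log2 fold change of 1.30 (edgeR adjusted p = 0.000479, SE 0.22). The third was the type II receptor Acvr2b, named after its values were seen. The count was 2 to 5 when 1 library was left out, with 5 without Pkd1 KO 3 and 2 without Pkd1 KO 1 or Pkd1 control 1, where Acvr2b lost its call. All genes called in these 3 fits were 7809, 7344 and 7979, in that order.

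Among the 8 Smads and Smurfs, all tested, 3 were higher in Pkd1 KO and none lower, or 37.5% called beside 44.4% of all genes. Smurf1, a ubiquitin ligase that marks BMP Smads for breakdown, averaged 21.3 ± 2.24 CPM in Pkd1 KO and 12.6 ± 1.47 CPM in Pkd1 controls (SD, n = 3 each), with a log2 fold change of 0.76 (edgeR adjusted p = 0.000959, SE 0.14). It was also higher in all Cep120 KO libraries, at 13.8, 14.9 and 12.8 CPM against 10.4, 11.3 and 8.60 CPM in Cep120 controls, where the log2 fold change of 0.45 had an unadjusted p of 0.00777 and did not pass (edgeR adjusted p = 0.757). Smad4, the shared partner of the receptor-activated Smads, averaged 48.8 ± 8.91 CPM in Pkd1 KO and 35.8 ± 4.19 CPM in Pkd1 controls (SD, n = 3 each), with a log2 fold change of 0.45 (edgeR adjusted p = 0.0230, SE 0.14). Its groups overlapped in CPM, with Pkd1 KO 3 at 39.0 CPM and Pkd1 control 3 at 40.2 CPM, but not in the deposited TPM (16.8 and 16.5). Its call was lost in 8 of 25 alternatives. The third was Smad1, named after its values were seen. Without Pkd1 KO 1, or without Pkd1 control 1, 1 gene of this list passed, beside 7344 and 7979 of all genes.

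The list of antagonists and modulators was the longest and held the largest number of called genes. Of its 17 genes 15 were tested and 12 passed in the Pkd1 line, 9 higher and 3 lower. This is 80% beside 44.4% of all genes, and 83.3% of the other ligands tested passed. The median log2 fold change of the list was 1.21, beside -0.04 for all genes. The count was 12 or 13 in each fit that left out a library, beside 7277 to 9266 of all genes. The same number, 9 higher and 3 lower, passed in the test of the difference between the lines, or 80% beside 28.1% of all genes. The count in that test was 8 without Cep120 control 1, beside 4428 of all genes.

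Fstl3, a secreted binder of activins and some BMPs, had 52.5, 49.7 and 35.3 CPM in Pkd1 KO 1 to 3, against 14.8, 14 and 13.9 CPM in Pkd1 controls. All KO libraries were above all controls, and the log2 fold change was 1.69 (edgeR adjusted p = 4.93e-06, SE 0.15). Cep120 libraries averaged 14.7 ± 2.06 CPM in KO and 13.6 ± 0.899 CPM in controls (SD, n = 3 each). The lines differed by 1.58 (adjusted p = 0.000301).

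Sostdc1, an antagonist of BMP and Wnt ligands that is abundant in kidney tubules, moved the other way. It had 103, 143 and 135 CPM in Pkd1 KO 1 to 3, against 599, 655 and 344 CPM in Pkd1 controls. The log2 fold change was -2.07 (edgeR adjusted p = 1.69e-05, SE 0.23), and every KO library was below every control. It had 461, 367 and 386 CPM in Cep120 KO, against 471, 485 and 615 CPM in Cep120 controls, and did not pass there. The difference between the lines was -1.70 (adjusted p = 0.00183).

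The other called antagonists and modulators given here were named after their values were seen. Fst (follistatin), Nbl1 (DAN), Chrdl1 and Bmper had log2 fold changes of 2.93, 2.30, 3.07 and 2.70 in the Pkd1 line, in that order, and all bind BMPs or related ligands outside the cell. Fstl1, a secreted follistatin-like protein, averaged 1291 ± 141 CPM in Pkd1 KO and 559.6 ± 95.6 CPM in Pkd1 controls (SD, n = 3 each). Bmp1, a protease that cleaves chordin and procollagen and is no ligand, had a log2 fold change of 1.69, and Twsg1 0.57. Kcp, which in mouse kidney enhances BMP signals, was lower at -0.90. The 9 that were higher moved in the same libraries as the stromal markers given above, and the part of those cells was not tested.

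Of 11 other target genes 9 were tested, and 2 passed in the Pkd1 line, both lower. This share of 22.2% is below the 44.4% of all genes. Bambi, a decoy receptor that BMP itself induces and that stands on the antagonist list too, had 10.5, 15.3 and 13.9 CPM in Pkd1 KO 1 to 3, against 27.6, 37.1 and 25.3 CPM in Pkd1 controls. Its log2 fold change was -1.18 (edgeR adjusted p = 0.000134, SE 0.17). In the Cep120 line it had 23.3, 21.3 and 26.2 CPM in KO, against 35.1, 30.7 and 32.7 CPM in controls, without overlap and without passing (log2 fold change -0.48, unadjusted p = 0.0132, edgeR adjusted p = 0.757). Id4 averaged 9.88 ± 1.90 CPM in Pkd1 KO and 15.3 ± 4.30 CPM in Pkd1 controls (SD, n = 3 each), with a log2 fold change of -0.63 (edgeR adjusted p = 0.0483, SE 0.24), and Pkd1 KO 3 and Pkd1 control 3 overlapped. The inhibitory Smads Smad6 and Smad7, which BMP also induces, did not pass. Id4 lost its call when any of 8 libraries was left out, and Bambi kept its call each time. The difference between the lines for Bambi, -0.70 (adjusted p = 0.0417), lost its call in 11 of 24 alternatives.

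**Figure D5:**
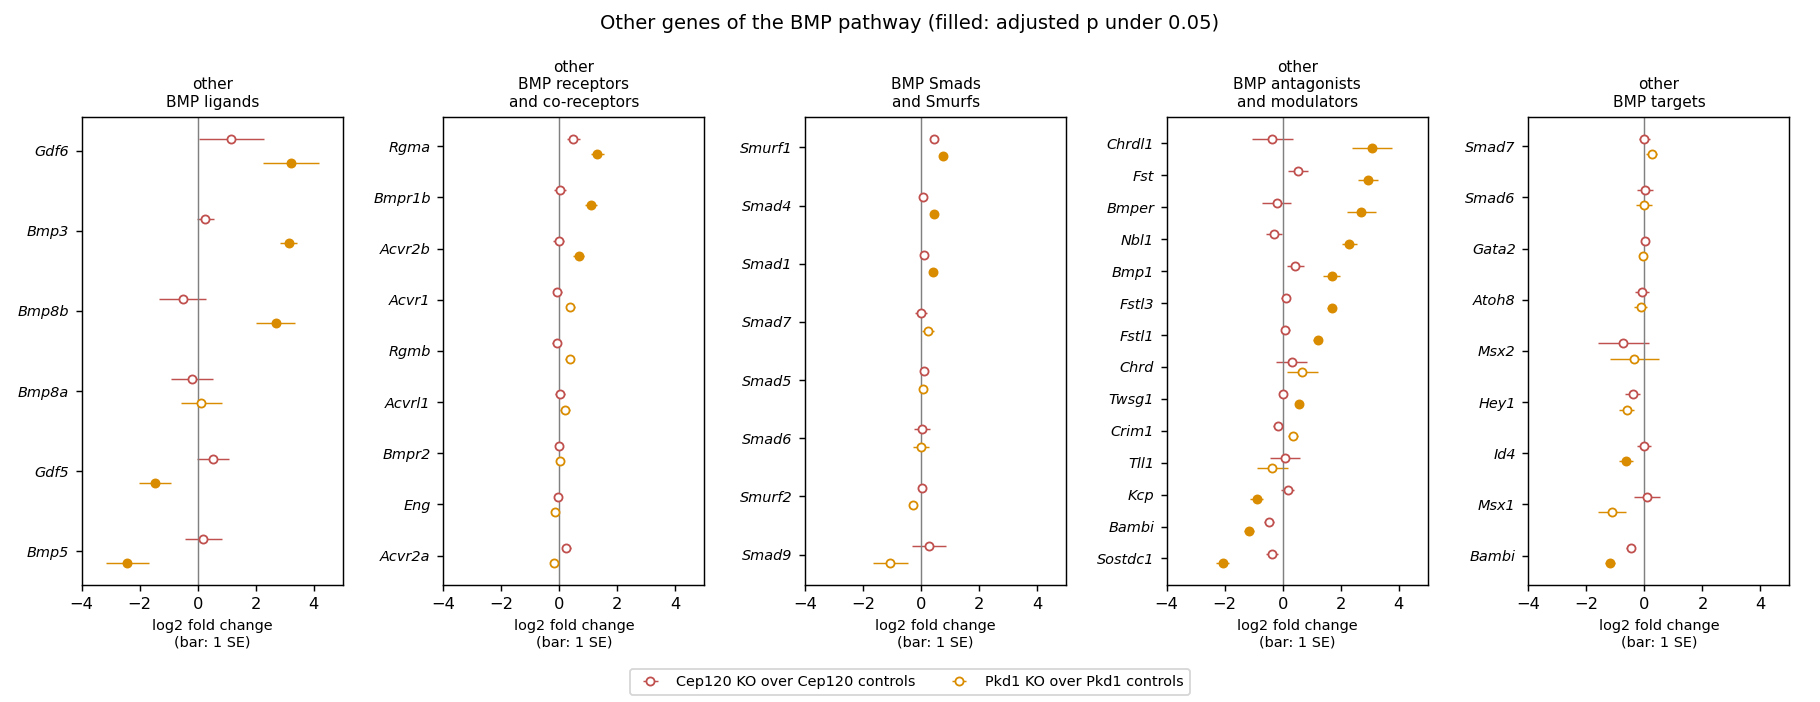
Log2 fold change, KO over control, of the tested genes of the 5 further pathway lists, except 1 antagonist that is not drawn, with bars of 1 standard error. The upper point of each pair is the Cep120 line and the lower the Pkd1 line, filled where the adjusted p was under 0.05. The Cep120 points range from -0.73 (Msx2) to 1.16 (Gdf6) and none is filled, while 11 of the 14 antagonists and modulators drawn are filled in the Pkd1 line.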

How the data were processed

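Whole mouse kidneys were frozen, ground and lysed for total RNA, and cDNA was prepared with a low-input SMARTer kit, per the labels' protocols. The tools in the submitters' processing notes are Salmon 0.8.2, featureCounts 1.4.6-p5 (Subread), STAR 2.5.1a and bcl2fastq, with mm9 as build and no statement of which made each file. The deposited gene table holds estimated counts, 21.6% of its genes having values that are not whole. TPM values, per gene and per transcript, were used as the authors deposited them, to compare levels between genes or transcripts. For Bmp7, Bmpr1a, Id3 and Smad4 the overlap of libraries in TPM is given beside that in CPM. The deposited log2 CPM table served as an alternative input. No source used here says whether counting was stranded, and some transcript lines were not analysed here.

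Of 55774 lines, 287 repeats were dropped, and counts were rounded. In R 4.3.3, edgeR 4.0.16 (filterByExpr, TMM scaling, 1 quasi-likelihood fit of 4 groups) tested 19890 genes, with Benjamini-Hochberg adjustment over all of them. CPM are TMM-scaled, except for the targeted genes, Xist and Y-linked RNA. Depth limits precision for rare genes, and stated limits cover counting error only. The fit was tested on simulated counts. The genes and pathway lists were chosen with earlier results of these data known. Named in full are the 9 genes and, per pathway list, the 2 with the smallest p in the Pkd1 comparison. Alternatives changed the scaling (RLE, upper quartile), the tool (DESeq2 1.42.0, voom in limma 3.58.1), the input (deposited log2 values), the filter (none, or 5 CPM in 3 libraries) and the libraries (1 line alone, or each library left out). Others added a term for replicate number, Xist, Y-linked RNA or detected-gene class (split at 28000 genes). Running them on the pathway lists was added after seeing the data. A single antagonist enters the counts and is not reported here. Sequences are RefSeq start regions on GRCm38.p6, and coordinates of that build were not combined with the mm9 counts.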

Additional observations from a re-analysis of the deposited data

Results flagged for a closer look

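For 15 of the genes named above the effect in the Pkd1 line differed from that in the Cep120 line by the test of the difference itself (edgeR's quasi-likelihood test, Benjamini-Hochberg adjustment over all 19890 genes, of which 28.1% passed). The 14 genes among them from the further pathway lists were named for their values in the Pkd1 comparison, which is part of this difference, so their passing restates that choice in part and is no independent support.

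The 9 BMP genes were chosen by name, with earlier results of these data known. Among them Id2 had a difference of -0.99 on the log2 scale (Pkd1 effect minus Cep120 effect, adjusted p = 0.0289). This difference lost its call in 8 of 24 alternatives, with adjusted p up to 0.0713. Id2 was lower in 3 of 3 Pkd1 KO libraries than in any Pkd1 control, where 52.9% of all genes did not overlap. Bmp3 differed by 2.88 (adjusted p = 0.000321), Fstl3 by 1.58 (adjusted p = 0.000301), Bmpr1b by 1.07 (adjusted p = 0.0155) and Sostdc1 by -1.70 (adjusted p = 0.00183), and these 4 kept their call in all 24 alternatives. Bmp8b differed by 3.21 (adjusted p = 0.0389) but lost its call in 13 of 23 alternatives, with adjusted p up to 0.0913. Bambi differed by -0.70 (adjusted p = 0.0417) and lost its call in 11 of 24, with adjusted p up to 0.0987.

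Nbl1 differed by 2.60 (adjusted p = 0.000340), Fst by 2.41 (adjusted p = 0.00336) and Fstl1 by 1.11 (adjusted p = 0.00323), and no alternative ended these calls. Chrdl1 differed by 3.43 (adjusted p = 0.0206) and Bmper by 2.92 (adjusted p = 0.00944), and each lost its call with voom. Twsg1 differed by 0.55 (adjusted p = 0.0240) and lost its call in 8 of 24 alternatives, Kcp by -1.06 (adjusted p = 0.0253) and in 5, and Bmp1 by 1.26 (adjusted p = 0.0371) and in 12.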

How the results depend on the processing

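Over 1928 log2 fold changes and differences under alternatives, 1713 kept their direction and their side of the threshold, 147 lost the call, 11 gained it and 57 changed sign, the last all for values that had not passed. Of 518 counts of called genes, 450 stayed within 1.5 times the reported count. In the Cep120 comparison the genes called numbered 21 with DESeq2, 344 with no filter, 1 without both replicate 3 controls and 0 to 2 when 1 library was left out. No BMP gene or pathway gene passed there in any alternative. In the Pkd1 comparison 2002 genes passed with the Xist term. The 9 BMP genes called were 0 with the Xist term, 2 with Y-linked RNA as a term and 2 to 4 when 1 library was left out. All genes called in the last 2 cases were 7248 and 7277 to 9266, beside 8839 in the fit reported above. The difference between the lines called 2 of the 9 without both replicate 3 controls (Id2, and Grem1 at 3.96), 0 with the Xist term and 0 to 1 when 1 library was left out. All genes called by that test in these cases were 6139, 4259 and 4225 to 5781, in that order. Higher against lower calls in the Pkd1 comparison were 4388 and 4451, but 3779 and 5095 under upper quartile scaling and 4930 and 3810 with the deposited log2 CPM. The median log2 fold change of all genes in the Cep120 comparison was 0.15 with the deposited log2 CPM and 0.01 with TMM, and that of the difference was -0.17 under upper quartile scaling and -0.06 with TMM.

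Cep120 log2 fold changes became, with the Xist term, -0.14 for Bmp2, 0.12 for Bmpr1a, -0.047 for Rgma, -0.062 for Bmpr1b, -0.012 for Smad4, -0.061 for Fstl3 and 0.26 for Id4. With the Y-linked term they became 0.11 for Id2, -0.048 for Grem1, -0.090 for Bmp3, -0.18 for Bmpr1b, -0.018 for Smad4 and 0.22 for Id4. With the deposited log2 CPM they became 0.11 for Bmp6, 0.076 for Bmpr1a and 0.059 for Id4. Without both replicate 3 controls they became 0.0046 for Bmpr1a, -0.078 for Bmpr1b and 0.016 for Id4, with the detected-gene term -0.096 for Bmpr1b and 0.093 for Id4, and with the filter of 5 CPM 0.0092 for Id4. When 1 library was left out they ranged from -0.044 to 0.17 for Bmp4, -0.14 to 0.054 for Bmpr1a, -0.14 to 0.36 for Bmp2, -0.12 to 0.12 for Bmpr1b, -0.011 to 0.19 for Fstl3, -0.21 to 0.19 for Id4, -0.17 to 0.18 for Bmp6 and -0.00052 to 0.16 for Smad4. The difference between the lines became for Id1 -0.0050 with RLE scaling, -0.0052 with DESeq2, -0.084 with upper quartile scaling, -0.066 with the filter of 5 CPM and -0.13 both without both replicate 3 controls and with the detected-gene term. For Bmp7 it became -0.058 with upper quartile scaling, -0.041 with the filter of 5 CPM and -0.11 in the last 2 fits, and for Grem1 -0.13 with the Xist term. With 1 library left out it ranged from -0.13 to 0.24 for Bmp7, -0.23 to 0.28 for Id1 and -0.47 to 3.6 for Grem1. The cause was not tested.

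Whether replicate numbers pair KO with control libraries cannot be told with 3 libraries per group. Deviations from the group means correlated at 0.18, -0.05 and 0.15 for the same numbers in the Cep120 line. In the Pkd1 line these were -0.10, -0.04 and -0.14. For different numbers the correlations ran from -0.20 to 0.11 in the Cep120 line and from -0.05 to 0.13 in the Pkd1 line. With the replicate block 3 of the 9 genes passed in the Pkd1 comparison, beside 7804 of all genes, and the log2 fold change of Id2 was -1.21. Depth limits Grem1 and Bmp2 most, with 0 to 84 reads of Grem1 per library.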

Other observations

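By Pearson's r of TMM-scaled log2 CPM over the 12 libraries, among 12623 genes with enough reads, the genes most like Bmp4 were Ube2g2 (0.93) and Tmem127 (0.93), and those most like Bmpr1a were Klhl28 (0.97) and Slc44a1 (0.95). For Id3 they were Tmem219 (0.89) and Cdk5rap3 (0.87), and for Grem1 Il1rl2 (0.96) and Carmil1 (0.95). The libraries fall into groups that share genotype, detected-gene class and Xist, so these values describe the libraries and carry no test.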
